A study of Rattus norvegicus with 4 samples.

Results

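The Clcn5 cluster is a group of miRNA genes on rat chromosome X that sits inside Clcn5, and it was taken here as all products numbered miR-188, miR-362, miR-500, miR-501, miR-532 or miR-660, with any letter or arm suffix. Of the 740 miRNA names in the deposited table, 10 met this rule. They are both arms of the 5 genes Mir532, Mir188, Mir362, Mir501 and Mir500, each from 1 locus, and no name numbered 660 was among them. Small RNA had been sequenced from 4 libraries, 1 each of resting zone chondrocytes (RC-cells), the matrix vesicles they made (RC-MVs), growth zone chondrocytes (GC-cells) and their vesicles (GC-MVs). The cells came from costochondral cartilage of male Sprague Dawley rats, for which the labels name no genetic change or treatment, and were used at passage 4. MVs are small membrane vesicles of the cartilage matrix and were pelleted by sequential centrifugation of the trypsin-digested cell layer. How many animals gave each library is not given in the sources used here.

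Clcn5 encodes ClC-5, an endosomal chloride/proton exchanger best known for its role in the kidney proximal tubule. In mammals the miRNA genes of this cluster lie in an intron of Clcn5, on the same strand. A miRNA gene gives a hairpin that Drosha and Dicer cut into a 5p and a 3p arm, of which one is usually kept in Argonaute and then pairs with messages through its seed, bases 2 to 8. In the RefSeq annotation of the GRCr8 assembly the genes ran in the order Mir532, Mir188, Mir362, Mir501 and Mir500. All 5 were on the plus strand, inside the span of Clcn5 and between its 2 annotated starts. The antisense gene Mir3560 overlapped Mir501, and its miR-3560 had 0 reads in all 4 libraries. Whether the counting used strand is not given in the sources used here.

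Of the 10 names 9 were matched to a mature sequence from RefSeq (GRCr8). The name without a match was miR-362-5p, so the sequence comparisons leave it out. The mature sequences show how closely the matched members are related. They are written 5′ to 3′ with the seed in capitals.
rno-miR-500-3p: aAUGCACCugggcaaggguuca
rno-miR-501-3p: aAUGCACCcgggcaaggauuugg
rno-miR-362-3p: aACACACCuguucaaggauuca
rno-miR-532-3p: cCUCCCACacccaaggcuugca
rno-miR-188-3p: cUCCCACAugcaggguuugc
rno-miR-532-5p: cAUGCCUUgaguguaggacugu
rno-miR-188-5p: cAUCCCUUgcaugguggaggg
rno-miR-500-5p: aAUCCUUGcuaucugggugcuuag
rno-miR-501-5p: aAUCCUUUgucccuggguga

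The 3p arms of Mir500 and Mir501 had the same seed, AUGCACC, which no other of the 693 mature names searched shared. Over their first 22 bases they were identical at 18 and differed by C9U, A18G, U21C and G22A, with the base of miR-501-3p first and positions counted from its 5′ end. Reads of these 2 miRNAs are therefore uncertain, since the counting could have placed some at the wrong locus. The 3p arm of Mir362 matched miR-500-3p at 17 of 22 bases but had another seed, ACACACC, which it shared with miR-329-3p. The 3p arms of Mir532 and Mir188 formed a second related pair, with 16 of 20 overlapping bases identical and a common run of 8 bases, shifted by 1 position. The 5p arms of Mir500 and Mir501 were identical at 15 of 20 bases, and their seeds differed in the last base. The seed of miR-532-5p, AUGCCUU, was shared with miR-511-5p.

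The libraries held 982543 to 7414467 miRNA reads, with both MV libraries the shallower, and 3 reads were 0.000305% of GC-MV reads and 4.05e-05% of GC-cell reads. Levels are reads of a miRNA as a percent of all miRNA reads of its library. With 1 library per group no difference in these counts has a replicate check and no p-value was computed. Intervals are at the 95% level, Wilson for shares and exact Clopper-Pearson for ratios, and cover counting error only. A share cannot tell fewer molecules per cell or vesicle from fewer cells or vesicles that carry them. Of 6 cartilage miRNAs, 4 were read in RC-cells, led by miR-140-3p at 0.383%, and their sum was 0.526% to 1.00% across libraries. In both zones miR-140-3p and miR-455-3p were higher in the MVs than in the cells, and miR-140-5p and miR-455-5p were lower. Of the remaining 2, miR-675-5p was at 0 throughout and miR-675-3p had 1 read in GC-cells. By their sums, markers of blood, liver and muscle were higher in the vesicles, and the neuronal one was lower. The blood list, with 7 of 8 names in the table, summed to 0.00123% and 0.00126% in the cells and to 0.0887% and 0.190% in the MVs. The liver miRNA miR-122-5p was at 0.000459% and 0.000491% in the cells and at 0.401% and 1.14% in the MVs. Of 4 skeletal muscle miRNAs, the sums were 0.000368% to 0.000715% in the cells and 0.00171% to 0.00733% in the MVs. Of 2 neuronal miRNAs 1 had reads, at 0.00117% and 0.00154% in the cells and 0.000361% and 0.000611% in the MVs. The part of such RNA in the vesicle values below was not tested.

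All 10 members had reads in both cell libraries and in RC-MVs, and 7 had reads in GC-MVs. At least 10 reads were found for 4 members in every library: miR-532-5p, miR-362-5p, miR-501-3p and miR-500-3p. These 4 miRNAs carry the comparisons that follow.

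The 5p arm of Mir532 dominated the cluster. This miRNA is known to repress Runx3, a runt family transcription factor, in cancer cells. There were 8051 reads of rno-miR-532-5p in RC-cells (0.124%) and 1307 in RC-MVs (0.118%), against 9471 in GC-cells (0.128%) and 1499 in GC-MVs (0.153%). It ranked 57th, 67th, 50th and 50th among all names of these libraries. GC-MVs stood highest, and the intervals of RC-MVs and RC-cells overlapped. It held 90.3% of the cluster's reads in RC-cells, 90.9% in GC-cells, 79.2% in RC-MVs and 84.9% in GC-MVs. No other member passed 0.0119% in any library.

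The seed-sharing 3p arms of Mir501 and Mir500 were both higher in MVs than in cells. In neurons, miR-501-3p is known to repress a glutamate receptor subunit in dendrites. There were 185 reads of miR-501-3p in RC-cells (0.00284%) and 132 in RC-MVs (0.0119%), against 208 in GC-cells (0.00281%) and 110 in GC-MVs (0.0112%). Both MV libraries stood above both cell libraries and their counting intervals did not overlap. There were 73 reads of rno-miR-500-3p in RC-cells (0.00112%) and 80 in RC-MVs (0.00721%), against 71 in GC-cells (0.000958%) and 48 in GC-MVs (0.00489%). The MVs were again higher in both zones, although their libraries were several times shallower.

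The arms of Mir362 took different courses. There were 333 reads of miR-362-5p in RC-cells (0.00511%) and 101 in RC-MVs (0.00911%), against 367 in GC-cells (0.00495%) and 92 in GC-MVs (0.00936%). This arm was higher in the MVs of both zones, by less than 2-fold. There were 97 reads of miR-362-3p in RC-cells (0.00149%) and 13 in RC-MVs (0.00117%), against 136 in GC-cells (0.00183%) and 9 in GC-MVs (0.000916%). The share intervals of this arm overlapped between MVs and cells in both zones.

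The minor arm of Mir532 was lower in MVs. There were 145 reads of rno-miR-532-3p in RC-cells (0.00222%) and 9 in RC-MVs (0.000812%), against 111 in GC-cells (0.00150%) and 5 in GC-MVs (0.000509%). Its counting intervals did not overlap between MVs and cells in either zone, but the MV values rest on 5 and 9 reads.

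The other 4 members were rare. In mice, miR-188 is known for steering bone marrow stromal cells between the bone and fat lineages with age. Here miR-188-5p was counted 27 times in RC-cells and 3 times in RC-MVs, against 28 in GC-cells and 2 in GC-MVs, and its intervals overlapped throughout. Its partner miR-188-3p had 2, 4, 4 and 0 reads, in the same order. The 5p arms of the seed-sharing pair were at the edge of detection, with 2, 1, 10 and 0 reads of rno-miR-501-5p and 4, 1, 12 and 0 reads of miR-500-5p. The floor of 3 reads in GC-MVs, taken as the limit for a count of 0, was a share of 0.000305%. That is above the GC-cell share of each of these 3 miRNAs, so a lower share in GC-MVs was not detectable at this depth.

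**Figure D1:**
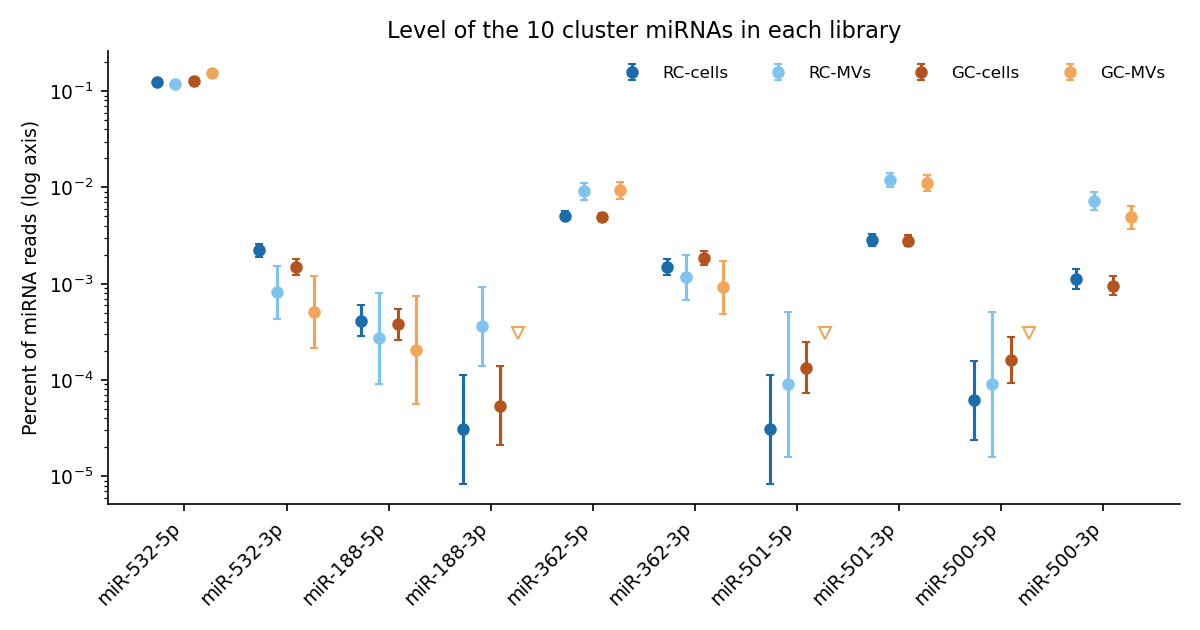
Each point is the share of miRNA reads (percent, log axis) of 1 member in 1 library, bars are 95% Wilson intervals for counting error, and open triangles mark the floor of 3 reads for members with 0 reads. The points of miR-532-5p lie between 0.118% and 0.153%, far above all others, and both MV points of miR-501-3p and miR-500-3p lie above both cell points.

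The order of the members differed between cells and MVs. After miR-532-5p, RC-cells held miR-362-5p, miR-501-3p, miR-532-3p, miR-362-3p and miR-500-3p in falling order. The intervals of miR-501-3p and miR-532-3p overlapped, as did those of miR-362-3p and miR-500-3p. In RC-MVs the order was miR-501-3p, miR-362-5p, miR-500-3p, miR-362-3p and miR-532-3p. Here the intervals of neighbours overlapped except between miR-500-3p and miR-362-3p. Such orders compare read counts of different sequences and carry any preference of the library preparation for one sequence over another.

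In RC-MVs against RC-cells, the question was which members the vesicles hold at another share than the cells that made them. The share of rno-miR-500-3p was 6.44-fold higher in RC-MVs (4.63 to 8.97) and that of miR-501-3p 4.19-fold higher (3.33 to 5.27). The share of miR-362-5p was 1.78-fold higher (1.41 to 2.23), whereas that of rno-miR-532-5p was 0.954 times the cell share (0.899 to 1.01). Under the 3 other scalings described below miR-532-5p was at 0.825 to 0.928 times the cell share, with intervals below 1. The share of rno-miR-532-3p was 2.74-fold lower (1.40 to 6.12). In all, 4 of 10 members were at least 2-fold higher, against 33.6% of all names tested, and 1 of 10 was at least 2-fold lower, against 30.4%. The 2 further members counted as higher, miR-188-3p and rno-miR-501-5p, rest on 4 against 2 and 1 against 2 reads, with ratios of 11.8 (1.68 to 130.0) and 2.94 (0.0498 to 56.5). The whole interval lay above 2-fold for miR-500-3p and miR-501-3p, which compares with 23.4% of all names. With 10 or more reads on both sides, 2 of 5 members were 2-fold higher and 0 lower, against 34.5% and 28.3% of the 293 names with as many. These shares of members are small counts near the background, so that the numbers alone set the cluster apart in neither direction.

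In GC-MVs against GC-cells, miR-500-3p and miR-501-3p were again at least 2-fold higher and miR-532-3p again at least 2-fold lower. The others past 2-fold in the resting zone, miR-188-3p and rno-miR-501-5p, had 0 reads in GC-MVs. How often any name was past 2-fold in both zones was not counted. The share of rno-miR-500-3p was 5.10-fold higher in GC-MVs (3.46 to 7.46) and that of miR-501-3p 3.99-fold higher (3.14 to 5.05). The share of miR-362-5p was 1.89-fold higher (1.49 to 2.38) and that of rno-miR-532-5p 1.19-fold higher (1.13 to 1.26). With TMM scaling the miR-532-5p ratio was 1.02 (0.967 to 1.08), an interval that held 1, and under the other scalings it was 1.08 and 1.28. The share of rno-miR-532-3p was 2.94-fold lower (1.22 to 9.24) and that of miR-362-3p 2.0-fold lower (1.02 to 4.47), the latter at the threshold itself. With totals that did not count the 3 abundant names miR-143-3p, miR-22-3p and miR-21-5p, miR-362-5p was 2.03-fold higher and miR-362-3p at 0.536 times the cell share, so that these arms changed places at the 2-fold threshold. Of the 7 members with reads in both libraries, 2 were at least 2-fold higher, against 32.1% of all names, and 2 were at least 2-fold lower, against 25.2%. The interval lay wholly above 2-fold for both miR-500-3p and miR-501-3p, against 17% of all names. With 10 or more reads on both sides, 2 of 4 members were 2-fold higher and 0 lower, against 30.2% and 22.2% of the 275 names with as many.

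**Figure D2:**
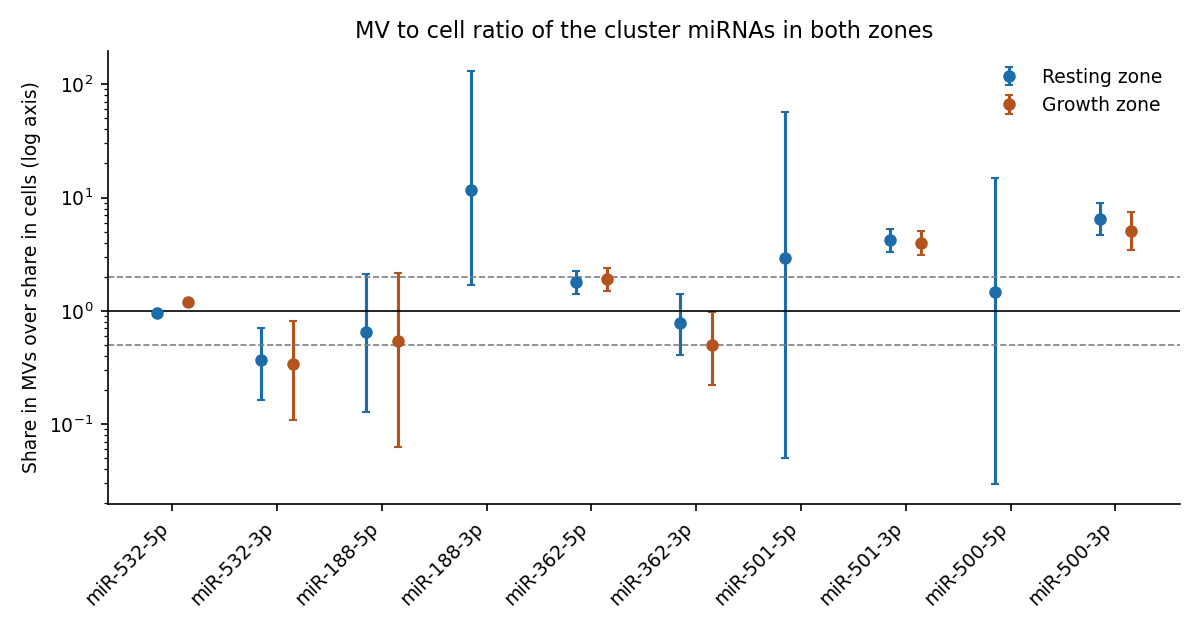
Points are the share in MVs over the share in cells (log axis) for each member in the resting zone (blue) and growth zone (brown), with exact 95% counting intervals; dashed lines mark 2-fold, and members with 0 reads in a library are left out. Both points of miR-500-3p and miR-501-3p lie above 2-fold with their whole intervals, and both points of miR-532-3p lie below 1.

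Summed over the 10 members, the cluster made up 0.137% of the miRNA total in RC-cells and 0.149% in RC-MVs, against 0.141% in GC-cells and 0.180% in GC-MVs. The MVs were higher in this sum, 1.09-fold over RC-cells in the resting zone (1.03 to 1.15) and 1.28-fold over GC-cells in the growth zone (1.21 to 1.34). The first of these ratios fell to 0.940 when the totals did not count the 3 abundant names, so its direction depended on the scaling. Without miR-532-5p, a sum looked at after the data were seen, the other 9 members together were 2.33-fold higher in RC-MVs (2.05 to 2.64) and 2.12-fold higher in GC-MVs (1.84 to 2.43). Of these reads 212 of 344 in RC-MVs and 158 of 266 in GC-MVs were miR-500-3p and miR-501-3p. Without this pair too, the remaining 7 members summed to 1.27 times the cell share in RC-MVs (1.05 to 1.54) and 1.22 times in GC-MVs (0.986 to 1.5), with miR-532-3p, miR-362-3p and miR-188-5p below their cell shares in both zones.

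The make-up of the cluster within a library does not depend on how the library is scaled. The pair miR-500-3p and miR-501-3p accounted for 2.89% of the cluster total in RC-cells (2.56% to 3.26%) and 12.8% in RC-MVs (11.3% to 14.5%). In the growth zone the pair accounted for 2.68% in GC-cells (2.39% to 3.01%) and 8.95% in GC-MVs (7.71% to 10.4%). Among the reads left after miR-532-5p was set aside, the pair held 29.7% in RC-cells and 29.5% in GC-cells. In the MVs it held 61.6% and 59.4%, so that it was the larger part in both vesicle libraries. The share of miR-362-5p among these reads was 38.4% in RC-cells and 29.4% in RC-MVs, against 38.8% in GC-cells and 34.6% in GC-MVs, and in the growth zone its intervals overlapped. The share of miR-532-3p was 16.7% and 11.7% in the cells and 2.62% and 1.88% in the MVs. Within the pair, there were 0.395 reads of miR-500-3p for each read of miR-501-3p in RC-cells (0.297 to 0.520) and 0.606 in RC-MVs (0.453 to 0.806), against 0.341 in GC-cells (0.257 to 0.449) and 0.436 in GC-MVs (0.304 to 0.618). The intervals of these ratios overlapped between cells and MVs of either zone.

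**Figure D3:**
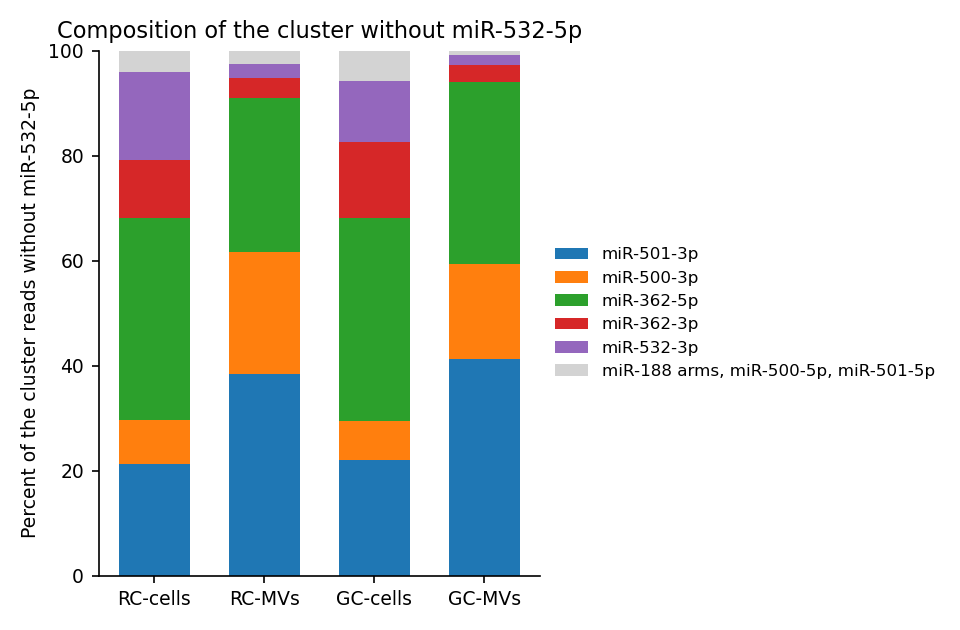
Stacked bars give the percent of the cluster reads of each library, without miR-532-5p, that each member held. The parts of miR-501-3p and miR-500-3p together reach 29.7% and 29.5% in the cell libraries and 61.6% and 59.4% in the MV libraries, while that of miR-532-3p is narrower in the MVs.

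The major arm of a hairpin was the arm with more reads over all 4 libraries. It was the 5p arm for Mir532, Mir362 and Mir188 and the 3p arm for Mir501 and Mir500. For Mir532 the 5p arm took 98.2% of the reads of both arms in RC-cells (97.9% to 98.5%) and 99.3% in RC-MVs (98.7% to 99.6%), against 98.8% in GC-cells (98.6% to 99.0%) and 99.7% in GC-MVs (99.2% to 99.9%). For Mir362 the 5p arm took 77.4% in RC-cells (73.3% to 81.1%) and 88.6% in RC-MVs (81.5% to 93.2%), against 73.0% in GC-cells (68.9% to 76.7%) and 91.1% in GC-MVs (83.9% to 95.2%). For both hairpins the MV intervals lay above those of the cells of the same zone. For Mir500 the 3p arm took 94.8% in RC-cells and 98.8% in RC-MVs, against 85.5% in GC-cells and all 48 reads in GC-MVs. For Mir501 it took 98.9%, 99.2%, 95.4% and all 110 reads, in the same order. For Mir188 the 5p arm took 27 of 29 reads in RC-cells, 3 of 7 in RC-MVs, 28 of 32 in GC-cells and both of the 2 reads in GC-MVs, so that the zones pointed opposite ways on few reads.

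As odds of the major over the minor arm, the MV to cell ratio in the resting zone was 2.62 for Mir532 (conditional exact interval from 1.34 to 5.85), 2.26 for Mir362 (1.20 to 4.59) and 4.38 for Mir500 (0.418 to 219). It was 1.43 for Mir501 (0.0735 to 84.8) and 0.0556 for Mir188 (0.00406 to 0.643). In the growth zone it was 3.51 for Mir532 (1.46 to 11.1) and 3.79 for Mir362 (1.84 to 8.77). The minor arms of Mir500, Mir501 and Mir188 had no reads in GC-MVs. The lower interval ends were 1.76 for Mir500, 1.16 for Mir501 and 0.0227 for Mir188. Thus 3 of 5 hairpins of the cluster had odds of the major arm at least 2-fold higher in RC-MVs, against 32.9% of 158 hairpins with reads of both arms in both libraries. In GC-MVs 2 of 2 did, against 25.6% of 156 hairpins. Over all hairpins the median log2 odds ratio was below 0, at -0.48 for the resting and -0.38 for the growth zone. The major arms of Mir532 and Mir362 moved the other way from this median. Their direction was common, since 69 of the 158 and 67 of the 156 hairpins had odds ratios above 1. The major arm was also chosen on summed reads, most of which came from the deeper cell libraries. With at least 10 reads of each arm in both libraries only Mir362 in the resting zone could be compared.

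Between the zones, no member with 10 or more reads on both sides differed by 2-fold on the library totals. In RC-cells against GC-cells, the share of rno-miR-532-5p was 0.967 times that in GC-cells (0.939 to 0.996) and that of miR-362-5p 1.03 times (0.887 to 1.20). The ratio was 1.01 for miR-501-3p (0.826 to 1.24), 1.17 for rno-miR-500-3p (0.832 to 1.65) and 0.811 for miR-362-3p (0.619 to 1.06). The interval was clear of 1 for rno-miR-532-3p, which was 1.49-fold higher in RC-cells (1.15 to 1.92). Under the other scalings this ratio was 1.16 to 1.19 with intervals that held 1. The same scalings put 4 members on the other side of 1, among them miR-501-3p at 0.790 to 0.812 and miR-362-5p at 0.806 to 0.828, both with intervals below 1, and they put rno-miR-532-5p at 0.755 to 0.776. Of the 10 members, 0 were at least 2-fold higher in RC-cells, against 13.7% of all names, and 2 were at least 2-fold lower, against 5.7%. The 2 lower members, rno-miR-501-5p with 2 against 10 reads and miR-500-5p with 4 against 12 reads, had intervals that held 1 on the library totals. With 10 or more reads on both sides, 0 of 7 members were 2-fold different, against 10.6% of 379 names higher and 2.64% lower.

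In RC-MVs against GC-MVs, 0 of the 7 members with reads in both were at least 2-fold higher, against 24.7% of all names, and 0 were at least 2-fold lower, against 14.6%. The share of rno-miR-532-5p was 0.773 times that in GC-MVs (0.717 to 0.833). That of rno-miR-500-3p was 1.48-fold higher in RC-MVs (1.02 to 2.16), while the ratios of miR-501-3p, 1.06 (0.819 to 1.38), and miR-362-5p, 0.973 (0.726 to 1.30), had intervals that held 1. For miR-362-5p the paper's PCR array reported otherwise, listing it past 2-fold on the RC-MV side of this comparison. The sequencing counts did not show that difference under any scaling tried. Why the array and the counts differ was not tested. The summed cluster was at 0.829 times the GC-MV share (0.775 to 0.887). These zone ratios depended on the scaling. With the 3 abundant names left out of the totals, miR-500-3p was at 0.954 times the GC-MV share, miR-501-3p at 0.687, miR-362-5p at 0.628 and miR-532-5p at 0.499, the last past 2-fold. With TMM and size factors miR-500-3p was 1.28-fold and 1.24-fold higher, with intervals that held 1. The median log2 ratio of all names was 0.24 between the cells and 0.15 between the MVs. For the members with reads in both libraries it was -0.02 in the cells and 0.36 in the MVs. The member median thus lay below that of all names in the cells and above it in the MVs. The summed cluster, most of whose reads were miR-532-5p, was at -0.04 and -0.27 on the same scale, below both medians of all names.

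The Mir322/Mir503 group lies elsewhere on chromosome X and is read as another X-linked set of the same size, with 10 names from 5 genes. Its miR-322 and miR-503 belong to the wider miR-15/16 family, which is known to restrain cyclins and other cell cycle genes. Summed, this group made up 0.337% of the miRNA total in RC-cells and 0.188% in RC-MVs, against 0.0982% in GC-cells and 0.0311% in GC-MVs. All 4 libraries differed from each other beyond counting error, and the resting zone was the higher one in cells and in MVs. The group was 3.44-fold higher in RC-cells than in GC-cells (3.34 to 3.53) and 6.04-fold higher in RC-MVs than in GC-MVs (5.35 to 6.83). All 10 of its names were at least 2-fold higher in RC-cells, against 13.7% of all names, and 7 of 9 in RC-MVs, against 24.7%. One of the 7, miR-503, rests on 3 against 1 reads with an interval from 0.213 to 139.6. Another, miR-351, held 1319 of the group's 2085 reads in RC-MVs and was 10.8-fold higher there than in GC-MVs (8.89 to 13.3). The summed ratio between the MVs therefore rests largely on this name. In the paper's PCR array, miR-503-5p, miR-450a-5p and miR-322-5p were likewise past 2-fold between the MVs, with the resting zone higher. Against their cells, the summed group was 1.79-fold lower in RC-MVs (1.71 to 1.88) and 3.15-fold lower in GC-MVs (2.81 to 3.55). Its most abundant name in the cells, miR-450a-5p, was counted 10018 times in RC-cells and 144 times in RC-MVs, against 3610 in GC-cells and 53 in GC-MVs. The MV to cell ratio of the cluster divided by that of the group was 1.95 in the resting zone (1.82 to 2.09) and 4.03 for the growth zone (3.56 to 4.57). In both MV libraries miR-351 had the most reads of the group, 1319 and 108, and against the cells it was 1.43-fold higher in RC-MVs (1.34 to 1.52) but 1.93-fold lower in GC-MVs (1.59 to 2.37). Without miR-450a-5p the same ratios of the cluster to the group were 1.14 and 2.46. The ratios without miR-351 were not computed.

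Set against this group inside each library, there were 0.406 reads of the Clcn5 cluster for each read of the group in RC-cells (0.396 to 0.416) and 0.792 in RC-MVs (0.742 to 0.845), against 1.43 in GC-cells (1.39 to 1.47) and 5.77 in GC-MVs (5.11 to 6.53). The zone ratio of the cluster was 0.284 times that of the group in cells (0.273 to 0.295) and 0.137 times in MVs (0.120 to 0.158). The other names of chromosome X, without either set, numbered 86 by the GRCr8 table. Of the 31 with reads in both cell libraries, 3 were higher and 1 was lower in RC-cells by 2-fold or more, where 13.7% and 5.7% of all names were, with a median log2 ratio of 0.49. Of the 22 with reads in RC-MVs and RC-cells, 4 were higher and 10 were lower in RC-MVs by the same measure, where 33.6% and 30.4% of all names were. Their median log2 ratio was -0.59, whereas the median of the 10 cluster members was 0.69, with 3 of them resting on 4 reads or fewer in both libraries, and that of all names 0.08. In the growth zone the median was 0.26 for the 7 members with reads, 0.13 for all names and -0.54 for the 21 other names of the chromosome.

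**Figure D4:**
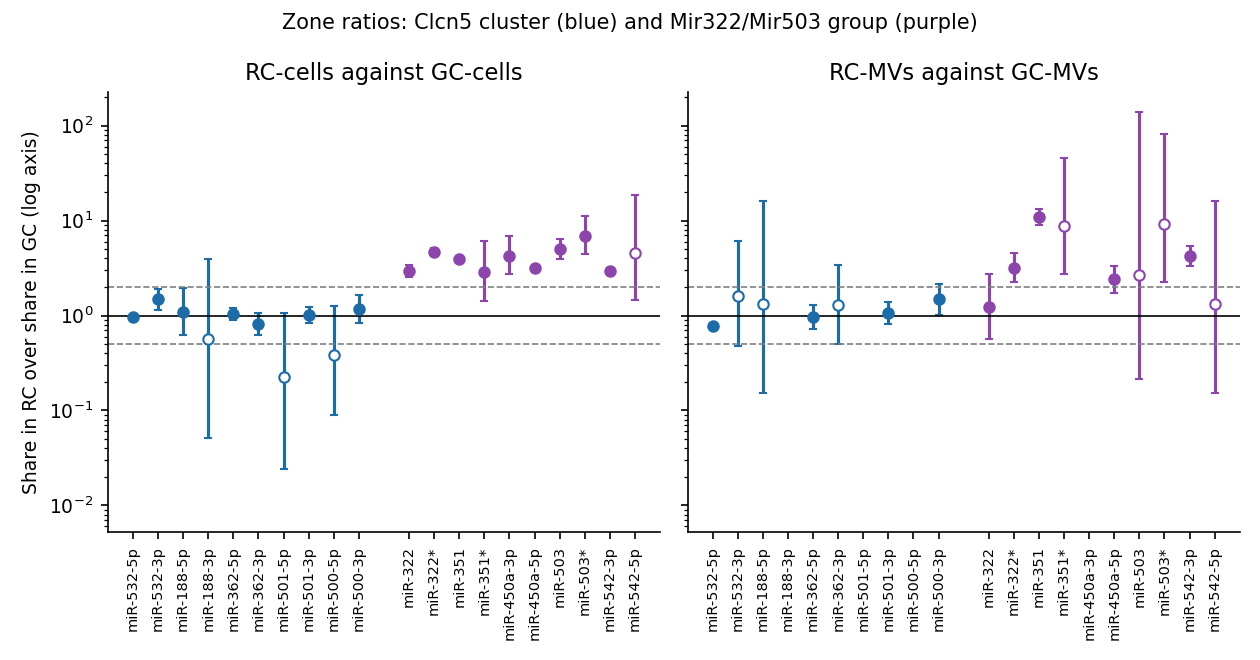
Points are the share in RC over the share in GC (log axis) for each name of the Clcn5 cluster (blue) and the Mir322/Mir503 group (purple), in cells (left) and MVs (right), with exact 95% counting intervals; open points have fewer than 10 reads in a library and dashed lines mark 2-fold. All 10 purple points of the cells lie above 2-fold, while the filled blue points lie near 1.

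The names most like the summed cluster across the 4 libraries were sought among 129 other names with at least 100 reads in each. Likeness was the Euclidean distance between log2 percents centred on their own mean, so that 0 is the same pattern. Since miR-532-5p held 79.2% to 90.9% of the summed reads, the likeness is mostly to this member. The other members were not compared singly. The nearest was miR-25-3p, at a distance of 0.11, with 0.0631% in RC-cells and 0.0628% in RC-MVs, against 0.0594% in GC-cells and 0.0803% in GC-MVs. It was followed by miR-146a-5p (0.19), miR-191a-5p (0.21), miR-31a-5p (0.24) and miR-130a-3p (0.26), while the median name was at 1.39.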

How the data were processed

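The authors isolated RNA with TRizol, sequenced small RNA on an Illumina instrument, checked reads with FASTQC, aligned them with Bowtie2 to Rnor_6.0 and tabulated miRNAs with miARma-Seq. The deposited values are raw counts, whole numbers for each miRNA locus of the annotation. Tool versions, trimming and how reads with more than 1 matching locus were counted are not given in the sources used here.

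From these counts, the 774 loci were summed by mature name to 740 names and divided by the library total, as in the study's methods. A difference was a ratio of at least 2-fold with at least 1 read in both libraries. Each group had 1 library, so no differences were tested. The code that calls 2-fold differences was checked on simulated counts. The members and lists were chosen with earlier results of these data known. Named were all members, the Mir322/Mir503 group and the 5 names nearest in pattern. Alternatives were edgeR's TMM factors, DESeq2's size factors, totals without 3 abundant names, a minimum of 10 reads, a pseudocount of 0.5, whole intervals beyond 2-fold and a 4-fold threshold. The marker lists of cartilage, blood, skeletal muscle, liver and neurons were read as sums. Sequences, gene order, gene overlaps and chromosomes came from RefSeq tables of GRCr8, whose coordinates are not printed because the build of the counts differs. The PCR array was not analysed here, and what is said of it is taken from the paper. Python 3.11.15, numpy 2.4.6, pandas 2.3.3, scipy 1.17.1, matplotlib 3.10.9, R 4.3.3, edgeR 4.0.16 and DESeq2 1.42.0 were used.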

Additional observations from a re-analysis of the deposited data

How the results depend on the processing

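The labels carry no replicate numbers. MVs were compared with cells inside each zone, and a fit over both zones with the zone as a block was not run. Of 102 values of single members under the 3 other scalings, 82 stayed inside their counting interval and 20 moved outside it. The intervals of members with few reads are wide and thus hard to leave. That 0 of the 2-fold differences reversed was fixed in advance, since the largest log2 shift, -0.63, is less than 2-fold. Between the zones, 4 members changed side of 1 under at least 1 scaling in the cells and 4 in the MVs. Each scaling moves all ratios of a comparison alike, so such a change only marks a ratio closer to 1 than the shift. The 2-fold higher shares of miR-500-3p and miR-501-3p in MVs held under all scalings, read minimums and intervals tried. With ratios of 3.99 to 6.44 and 48 or more reads of each, the scalings and read minimum could not have removed them. At 4-fold miR-501-3p was no longer called in the growth zone.

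The summed cluster ratio, which was 1.09 for RC-MVs against RC-cells, was 1.02 with TMM normalization, 0.940 with totals without the abundant names and 2.33 without miR-532-5p. For GC-MVs against GC-cells it was 1.09, 1.15 with size factors, 1.37 and 2.12. Between the MVs of the zones it was 0.721, 0.698, 0.535 and 1.15, and between the cells of the zones 0.772, 0.761, 0.781 and 1.04, each in the order TMM, size factors, totals and without miR-532-5p. Without miR-532-5p, miR-500-3p and miR-501-3p, chosen after seeing the data like the sum without miR-532-5p, it was 1.27 and 1.22 for MVs against cells of the resting and growth zone, 1.08 between the MVs and 1.04 between the cells. TMM moved all log2 ratios by -0.09, -0.22, -0.20 and -0.34, in the order in which the comparisons are given here, size factors by -0.04, -0.15, -0.25 and -0.36, and the totals by -0.21, 0.10, -0.63 and -0.32.

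The count of members called, 5 for RC-MVs against RC-cells, was 2 with at least 10 reads, where 5 in place of 10 members were tested, 2 with whole intervals and 3 at 4-fold, while the share of all names called either way was 64% and became 62.8%, 43.2% and 34.5%. For GC-MVs against GC-cells it was 4, and 2, 2 and 1 under the same settings, with 57.3% of all names and 52.4%, 32.1% and 24.2%. It was 5 with TMM and with size factors, where miR-188-5p joined as lower (56.4% and 57.1% of all names), and 5 with the pseudocount (58.1%), where 3 of the 4 were kept. For RC-MVs against GC-MVs it was 0 (39.3% of all names), and 1 (41.1%) with totals without the abundant names (miR-532-5p, lower) and 3 (46.5%) with a pseudocount of 0.5, which brought in members with 0 reads in GC-MVs. Between the cells of the zones it was 2 (19.4%), and 0, 0 and 1 with 10 reads, whole intervals and 4-fold (13.2%, 5.06% and 4.22%), and 3 under each of the 3 scalings, where miR-188-3p joined as lower (17.9% to 18.1%).

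Relative to the Mir322/Mir503 group the cluster's ratio was 1.95 and 4.03 for MVs against cells of the resting and growth zone. It was 1.14 and 2.46 without miR-450a-5p, the name of that group with the most reads in the cells. For RC-cells against GC-cells it was 0.263 without that name. Without miR-532-5p, the parts of the cluster's reads became 8.41%, 23.3%, 7.50% and 18% for miR-500-3p, 21.3%, 38.4%, 22.0% and 41.4% for miR-501-3p, and 38.4%, 29.4%, 38.8% and 34.6% for miR-362-5p (RC-cells, RC-MVs, GC-cells, GC-MVs), the base being smaller. Depth limits the rare arms most.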
